A study of Rattus norvegicus with 6 samples.

Results

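The mitosis genes are 44 listed genes whose proteins drive a cell into division, attach its chromosomes to the spindle, pull them apart and split the cell in 2. They were chosen by name, with earlier results of these data known. A gene was measured where a probe set carried its symbol and no other. That held for 37 of the 44, out of 14497 genes with such a probe set. Where a gene had several, the one with the highest average over the 6 arrays was used. Mki67, Cenpf, Cenpe, Kif18a, Spc24, Ncapg and Anln had none and were not analysed here. Ccnb2 alone had 2 probe sets.

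RNA came from male Sprague-Dawley rats that were naive or had a cerebral infarct, caused by hooking up the middle cerebral artery until flow stopped and then releasing it, and was hybridised to single-channel Affymetrix arrays. Naive tissue was brain labelled healthy, with no region named, from 15 aged rats (18 to 20 months) and 15 young rats (3 to 5 months). Tissue bordering the infarct was taken 3 d after stroke from 23 aged rats (19 to 20 months) and 19 young rats (3 to 4 months), and 14 d after stroke from other pools of 23 aged and 19 young rats of the same ages. Each of these 6 groups was 1 pool of RNA on 1 array, which hides how much single animals varied. Naive and infarct-border tissue may also differ in region, which cannot be told apart from the effect of stroke. The median log2 value of an array was 7.09 to 7.15. The 9 neuronal markers averaged 11.3 and 11.35 on the aged and young naive arrays, 10.87 and 10.86 at 3 d, and 10.6 and 10.72 at 14 d, so brain tissue was present on each array.

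Entry into mitosis is driven by the kinase Cdk1 bound to cyclins A and B. Kinetochores then tie chromosomes to spindle microtubules, a checkpoint holds the cell until all are attached, and the anaphase promoting complex with Cdc20 destroys cyclin B and securin so that sister chromatids part. The genes for these proteins are transcribed late in the cell cycle, and most neurons of the adult brain have left the cycle for good. After a stroke, microglia, astrocytes, vascular cells and glial precursors are known to divide around the infarct, where cells that enter from the blood may divide as well. An array of whole tissue cannot tell more dividing cells from more RNA per cell, and the cells that carried these transcripts were not identified.

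The first comparison asked how the infarct border at 3 d differed from naive tissue. A fit across all 10947 genes that passed a filter on low values (limma, with age as a term) gave the changes below as log2 differences with their standard errors. A gene was called where its Benjamini-Hochberg adjusted p was under 0.05. Of the 37 measured mitosis genes 36 rose, 0 fell and 1 did not pass, and their median change was 2.08, against -0.03 over all genes tested. Among all genes 14.4% were called higher and 7.87% lower. The changes ran from 0.39 to 3.5, and 34 genes rose by at least 1 on the log2 scale, that is 2-fold. Both 3 d arrays lay above both naive arrays for 37 of 37, as they did for 33.8% of all genes. The filter asked for the 40th percentile of an array on at least 1 array. All 37 passed it, but 25 of them did so through the 3 d arrays alone, so their count is not independent of the rise. Without any filter 36 of 37 were again called. The same 37 genes were tested there, so this cannot show that the count is independent of the rise.

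**Figure D1:**
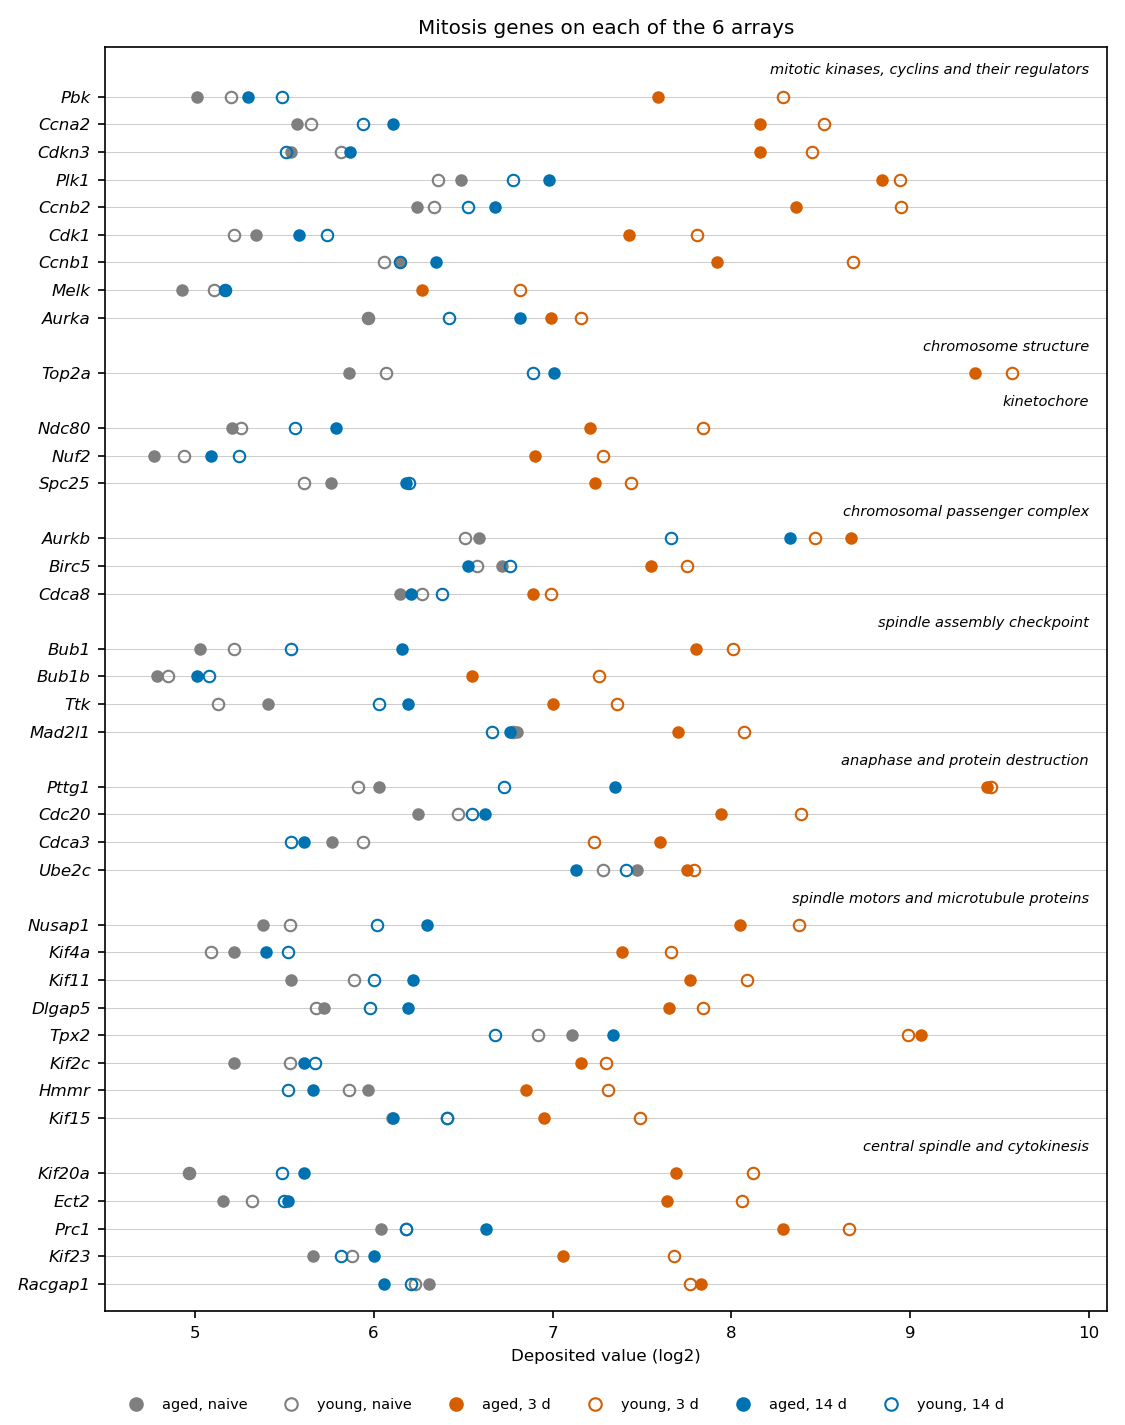
Each row is a mitosis gene, grouped by role and ordered by its change at 3 d, and the horizontal axis is the deposited log2 value. Filled points are aged and open points young arrays, in grey for naive tissue, orange for 3 d and blue for 14 d. The orange points lie to the right of the grey points in all 37 rows, and the blue points fall back towards the grey ones in most rows. Aurka, Ube2c and Aurkb have the smallest fitted differences between 14 d and 3 d (-0.45, -0.5 and -0.57).

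Among the 9 kinases, cyclins and their regulators all rose, by 1.11 to 2.83. Pbk, a kinase active in mitosis, stood at 5.01 on the aged and 5.2 on the young naive array, 7.59 and 8.29 at 3 d, and 5.3 and 5.49 at 14 d. Both 3 d values lay far above the other arrays, and the rise was 2.83 ± 0.16 (adjusted p = 7.53e-05), or 7.13-fold. Cyclin A2, encoded by Ccna2, read 5.57 and 5.65 on the aged and young naive arrays, 8.16 and 8.52 at 3 d, and 6.11 and 5.94 at 14 d. Its rise was 2.73 ± 0.15 (adjusted p = 7.53e-05). Cdk1 itself rose by 2.34 ± 0.15, the mitotic B cyclins Ccnb1 and Ccnb2 by 2.20 ± 0.22 and 2.36 ± 0.18, and Plk1, a kinase of spindle assembly and mitotic exit, by 2.47 ± 0.13. Cdkn3, a phosphatase that acts on cyclin-dependent kinases, rose by 2.62 ± 0.18. Aurka, the kinase of the centrosomes and spindle poles, rose least of the 9, by 1.11 ± 0.16.

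Top2a, the topoisomerase that untangles sister chromatids, had the largest rise of the 37. It read 5.86 on the aged and 6.07 on the young naive array, 9.36 and 9.57 at 3 d, and 7.01 and 6.89 at 14 d. The rise at 3 d came to 3.50 ± 0.14 (adjusted p = 4.01e-05), or 11.3-fold, and was nearly the same in aged rats (3.49) and in young rats (3.5).

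Of the kinetochore genes, the 3 measured ones encode parts of the Ndc80 complex, which grips the microtubule end, and all 3 rose. Ndc80 stood at 5.21 and 5.26 on the aged and young naive arrays, 7.21 and 7.84 at 3 d, and 5.79 and 5.56 at 14 d, a rise of 2.29 ± 0.20 (adjusted p = 0.000283). Nuf2, its partner, stood at 4.77 and 4.94 on the aged and young naive arrays, 6.9 and 7.28 at 3 d, and 5.09 and 5.25 at 14 d, a rise of 2.24 ± 0.12. Spc25 rose by 1.65 ± 0.13. In both ages the 3 d array was the highest of the 3 for each of these genes.

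The chromosomal passenger complex, which corrects faulty attachments and later guides cytokinesis, rose less evenly. Its kinase Aurkb had 6.59 and 6.51 on the aged and young naive arrays, 8.67 and 8.47 at 3 d, and 8.33 and 7.66 at 14 d, with a rise of 2.02 ± 0.16 at 3 d (adjusted p = 0.000224). Birc5, or survivin, had 6.72 and 6.58 on the aged and young naive arrays, 7.55 and 7.75 at 3 d, and 6.53 and 6.76 at 14 d, with a rise of 1.0 ± 0.14 (adjusted p = 0.00232). Cdca8, or borealin, rose by 0.73 ± 0.12 (adjusted p = 0.00466), and this call ended without the aged naive array (adjusted p = 0.0627) or the young one (adjusted p = 0.0527). The 14 d values of Birc5 and Cdca8 overlapped their naive ones, whereas both 14 d values of Aurkb stayed above its naive ones.

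All 4 spindle checkpoint genes rose. Bub1, a checkpoint kinase at the kinetochore, had 5.03 and 5.22 on the aged and young naive arrays, 7.8 and 8.01 at 3 d, and 6.16 and 5.54 at 14 d, a rise of 2.78 ± 0.21 (adjusted p = 0.000186). Bub1b, which as BubR1 helps to block Cdc20, had 4.79 and 4.85 on the aged and young naive arrays, 6.55 and 7.26 at 3 d, and 5.01 and 5.08 at 14 d, a rise of 2.08 ± 0.18. Ttk, the kinase Mps1, rose by 1.91 ± 0.17 and Mad2l1, the checkpoint protein Mad2, by 1.09 ± 0.15. Mad2l1 was 1 of the 5 genes of the 37 that were not below the 40th percentile on both naive arrays.

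The genes of anaphase and protein destruction held both one of the largest changes and the smallest one. Pttg1, which encodes securin, had 6.03 and 5.91 on the aged and young naive arrays, 9.43 and 9.45 at 3 d, and 7.35 and 6.73 at 14 d, a rise of 3.47 ± 0.17 (adjusted p = 6.22e-05), or 11.1-fold. Cdc20, the activator of the anaphase promoting complex, had 6.25 and 6.47 on the aged and young naive arrays, 7.94 and 8.39 at 3 d, and 6.62 and 6.55 at 14 d, a rise of 1.80 ± 0.15. Cdca3, which helps to remove the kinase Wee1, rose by 1.56 ± 0.15. Ube2c, the ubiquitin-conjugating enzyme of the complex, was the gene that did not pass, at 7.47 and 7.28 on the aged and young naive arrays, 7.75 and 7.79 at 3 d, and 7.13 and 7.41 at 14 d. Its difference at 3 d was 0.39 ± 0.14 (adjusted p = 0.0924), and it passed when either 14 d array was left out (adjusted p = 0.0281). Its 6 values spanned less than those of the other genes of this role.

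Spindle motors and microtubule proteins rose in 8 of 8. Nusap1, which bundles spindle microtubules, had 5.38 and 5.53 on the aged and young naive arrays, 8.05 and 8.38 at 3 d, and 6.3 and 6.02 at 14 d, a rise of 2.77 ± 0.16 (adjusted p = 9.05e-05). The chromosome-bound kinesin Kif4a had 5.22 and 5.09 on the aged and young naive arrays, 7.39 and 7.66 at 3 d, and 5.4 and 5.52 at 14 d, a rise of 2.37 ± 0.14. Kif11, the motor that pushes spindle poles apart, rose by 2.21 ± 0.16, and Kif15, which shares this task, by 0.96 ± 0.13. Kif2c, a kinesin that takes microtubules apart, rose by 1.86 ± 0.13, and the spindle assembly factors Tpx2, Dlgap5 and Hmmr by 2.01 ± 0.16, 2.04 ± 0.14 and 1.17 ± 0.17.

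The central spindle and cytokinesis genes rose in 5 of 5. Kif20a, a kinesin of the cleavage zone, had 4.97 on the aged and 4.97 on the young naive array, 7.69 and 8.12 at 3 d, and 5.61 and 5.49 at 14 d, a rise of 2.94 ± 0.16 (adjusted p = 7.53e-05). Ect2, which activates RhoA to build the contractile ring, had 5.16 and 5.32 on the aged and young naive arrays, 7.64 and 8.06 at 3 d, and 5.52 and 5.5 at 14 d, a rise of 2.61 ± 0.14. Prc1, a microtubule crosslinker, rose by 2.37 ± 0.19, the centralspindlin motor Kif23 by 1.60 ± 0.19 and its partner Racgap1 by 1.53 ± 0.13. On both naive arrays 14 of the 37 genes lay below the lower quartile of all probe sets. Values that low may lie near the background of the array, and their rises are then known only roughly.

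**Figure D2:**
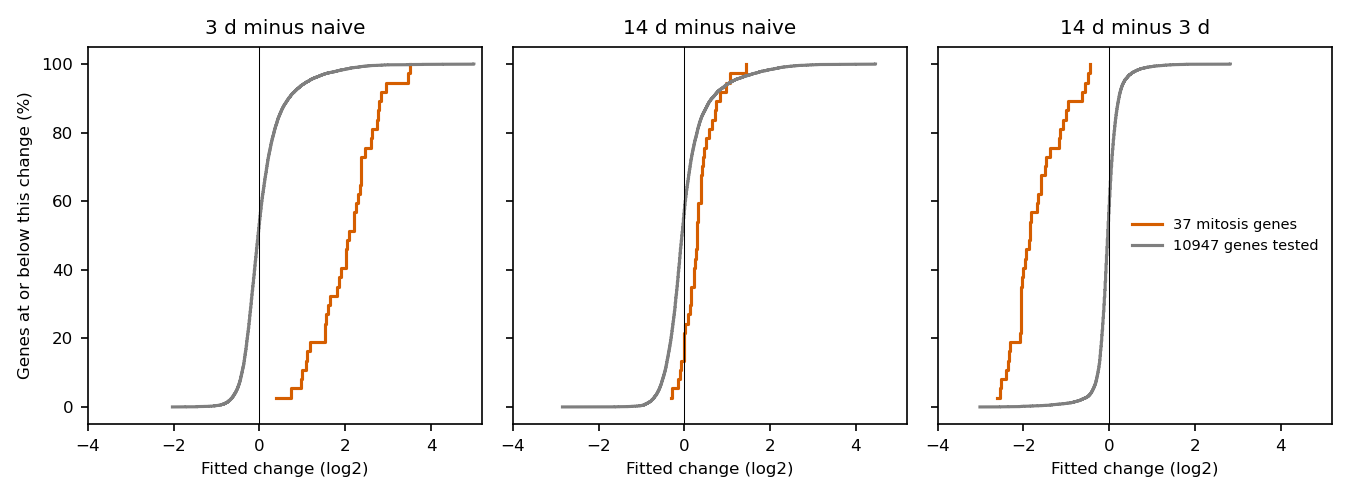
The panels give the cumulative share of genes (vertical axis, percent) at or below each fitted log2 change (horizontal axis) for 3 d minus naive, 14 d minus naive and 14 d minus 3 d, in orange for the 37 mitosis genes and in grey for the 10947 genes tested. The orange curve lies well to the right at 3 d (median 2.08), close to the grey curve at 14 d (median 0.3) and to the left for 14 d minus 3 d (median -1.85).

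Promoters are shown for the 4 largest rises among the genes whose upstream sequence held a match. Bub1 (2.78) held none and Pbk (2.83) had no promoter sequence, so both were passed over. Late cell cycle promoters are known to carry the cell cycle genes homology region, bound by the MuvB complex with B-Myb or FoxM1, and the CCAAT box, bound by NF-Y. The sequences are from RefSeq on build GRCr8 and cover the 130 bases before the annotated start, 5′ to 3′ on the gene's strand, with matches in capitals. Top2a lies at chr10:84473094-84473223 on the minus strand, Pttg1 at chr10:28406327-28406456 on the minus strand, Kif20a at chr18:26504292-26504421 on the plus strand and Nusap1 at chr3:127057165-127057294 on the plus strand.
Top2a: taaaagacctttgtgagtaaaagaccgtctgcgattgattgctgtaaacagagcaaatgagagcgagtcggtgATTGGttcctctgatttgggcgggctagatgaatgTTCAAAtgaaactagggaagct
Pttg1: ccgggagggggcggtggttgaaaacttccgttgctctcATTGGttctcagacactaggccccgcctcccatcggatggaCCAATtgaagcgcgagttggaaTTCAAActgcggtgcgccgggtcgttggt
Kif20a: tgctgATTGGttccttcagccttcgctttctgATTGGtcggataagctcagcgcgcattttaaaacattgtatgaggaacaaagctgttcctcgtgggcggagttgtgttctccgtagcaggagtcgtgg
Nusap1: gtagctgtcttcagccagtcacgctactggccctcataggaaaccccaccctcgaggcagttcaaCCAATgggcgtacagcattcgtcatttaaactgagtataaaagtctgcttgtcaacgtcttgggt

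The letters searched were TTTGAA and TTCGAA for the homology region and CCAAT for the box, on either strand (TTCAAA and ATTGG on the strand shown), in the 250 bases before the start. A CCAAT and a homology match can share a base where they abut, which none of the matches in these 4 promoters did. Promoter sequences were found for 31 of the 37 genes. The homology region letters were present in 15 of 31 (48.4%), against 11.7% of 9041 promoters of genes tested and 17.3% of all 27457 promoters in the table. CCAAT was present in 22 of 31 (71%), against 35.6% and 34.3%, and 2 or more copies in 16 of 31 (51.6%), against 12.4% and 9.77%. Both motifs stood in 13 of 31 (41.9%), against 4.65% and 6.22%. In Top2a the CCAAT match nearest the start began 57 bases before it and the homology match 22 bases before it, and in Pttg1 these began 51 and 29 bases before it. Kif20a and Nusap1 held CCAAT alone, and 7 of the 31 genes held neither, among them Bub1, Ndc80, Nuf2 and Aurka. The genes were listed by name as mitosis genes, whose promoters are known to carry these motifs. The shares therefore do not bear on the changes seen on these arrays. A match of letters is a description of sequence. No binding was measured in these samples.

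The second comparison asked what was left at 14 d. Most mitosis genes were back near their naive level. Of 37 genes 10 were higher, 0 lower and 27 did not pass, with a median change of 0.30, against -0.05 over all genes tested. The share called higher was 27% of the mitosis genes, against 13.6% of all genes, of which 11.4% were called lower. Both 14 d arrays exceeded both naive arrays for 24 of 37 genes, against 28.3% of all genes. At or above the 40th percentile on any 14 d array were 12 genes, whereas 35 reached it on both 3 d arrays. These counts partly restate the filter, which 25 of the 37 passed through the 3 d arrays alone. The shares of all genes were not counted.

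Aurkb kept most of its rise, at 1.45 ± 0.16 (adjusted p = 0.000932), or 2.73-fold. It was followed by Pttg1 (1.07 ± 0.17, adjusted p = 0.00423) and Top2a (0.98 ± 0.14, adjusted p = 0.00237). The other 7 were Ttk (0.84 ± 0.17), Bub1 (0.73 ± 0.21), Nusap1 (0.71 ± 0.16), Aurka (0.65 ± 0.16), Kif20a (0.58 ± 0.16), Spc25 (0.50 ± 0.13) and Plk1 (0.45 ± 0.13). Aurkb and Top2a were called whichever array was left out. The gap to the background depended on single arrays. Without the aged 14 d array 4 of 37 were higher (10.8%), about the share of all genes (9.98%). Without the aged naive array 3 were higher (8.11%, against 5.76% of all genes) and without the young naive array 3 (8.11%, against 7.91%). Without the young 14 d array there were 16 (43.2%, against 17.7%). The calls of Aurka, Bub1, Kif20a, Nusap1, Plk1 and Spc25 each ended without either naive array and without the aged 14 d array. The call of Plk1 also ended with centred medians (adjusted p = 0.0604) or no filter (adjusted p = 0.0594), and those of Kif20a and Spc25 with trended and robust variances (adjusted p = 0.071 and 0.0818). That of Pttg1 ended without the aged naive array (adjusted p = 0.0676) and that of Ttk without the young one (adjusted p = 0.111).

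At the other end, Hmmr, a spindle protein, had 5.97 and 5.86 on the aged and young naive arrays, 6.85 and 7.31 at 3 d, and 5.66 and 5.52 at 14 d. Cdca3 had 5.77 and 5.94 on the aged and young naive arrays, 7.6 and 7.23 at 3 d, and 5.61 and 5.54 at 14 d. Racgap1 had 6.31 and 6.23 on the aged and young naive arrays, 7.83 and 7.77 at 3 d, and 6.06 and 6.21 at 14 d. The 14 d values of all 3 genes lay below their naive values in both ages, but the differences of -0.32 ± 0.17, -0.28 ± 0.15 and -0.14 ± 0.13 did not pass (adjusted p = 0.206, 0.225 and 0.465).

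Set directly against 3 d, tissue at 14 d had lower levels of 34 of the 37 genes and higher levels of 0, with a median change of -1.85. Over all genes 1.82% were called lower and 1.34% higher, 3.16% in all, and the median was -0.03. Both 14 d arrays lay below both 3 d arrays for 37 of 37 genes, against 21.9% of all genes. Of the 37 genes 25 passed the filter through the 3 d arrays alone, so these counts partly restate the filter. Cdkn3 changed by -2.62 ± 0.18 (adjusted p = 0.000626), Pbk by -2.54 ± 0.16, Top2a by -2.51 ± 0.14, Pttg1 by -2.40 ± 0.17 and Kif20a by -2.35 ± 0.16. The 3 that did not pass were Aurka (-0.45 ± 0.16, adjusted p = 0.274), Aurkb (-0.57 ± 0.16, adjusted p = 0.149) and Ube2c (-0.50 ± 0.14, adjusted p = 0.168). Without the aged 14 d array Aurkb and Aurka passed (adjusted p = 0.00921 and 0.0284), and without the young one Ube2c did (adjusted p = 0.0328). The call of Cdca8 ended without any one of the naive or 3 d arrays (adjusted p = 0.0856 to 0.198), and that of Ttk without the young 3 d array (adjusted p = 0.0669). This comparison shares its 14 d arrays with the one before and its 3 d arrays with the first.

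**Figure D3:**
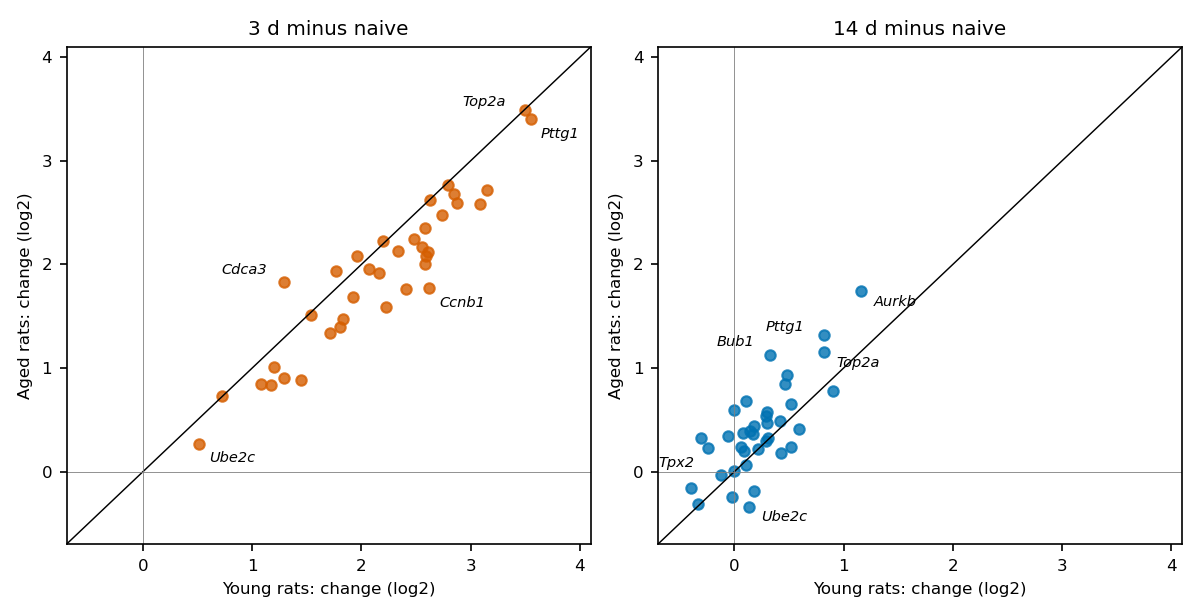
Each point is a mitosis gene, with the log2 change from naive in young rats on the horizontal axis and in aged rats on the vertical axis, at 3 d on the left and 14 d on the right. The line marks equal changes. At 3 d 32 of the 37 points lie below it, and at 14 d 28 lie above it. The shares of all genes on each side of the line were not counted. A different measure, the level at a time rather than the change from naive, was lower in aged than in young tissue for 62.4% of all genes at 3 d. At 14 d it was lower for 47.9%.

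The third question was whether the response differed between aged and young rats. Aged minus young, taken over the 3 matched pairs of arrays, gave 0 calls among the 37 genes and 0% of all genes with limma. At an unadjusted p under 0.05 there were 5 mitosis genes (2 higher and 3 lower in aged rats) and 852 genes in all. Their median difference was -0.09, against -0.02 over all genes. Time by time the pairs differed more, and single arrays give no error for these differences.

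At 3 d 33 of the 37 genes were lower in aged than in young tissue and 4 were higher, with a median difference of -0.33. Over all genes 62.4% were lower and the median was -0.06. With quantile normalization 32 of 37 were lower, with a median of -0.28. Differences of -0.3 or below were found for 20 of 37 genes (54.1%), against 11.4% of all genes. All 9 kinases, cyclins and regulators were lower in aged tissue (median -0.38), as were the 4 checkpoint genes (median -0.37) and the 3 kinetochore genes (median -0.38), whereas the anaphase genes had a median of -0.03. Ccnb1 had 7.92 on the aged and 8.68 on the young 3 d array, a difference of -0.76, against 0.1 on the naive and 0.2 on the 14 d arrays. Bub1b differed by -0.71 at 3 d, -0.06 in naive tissue and -0.06 at 14 d. The 4 genes that were higher in aged tissue at 3 d were Cdca3 (0.37), Aurkb (0.2), Tpx2 (0.08) and Racgap1 (0.05). An added interaction term tested the age difference at 3 d against the mean of the other pairs. None of the 37 genes passed with limma (lowest adjusted p = 1), and 0.00913% of all genes did. At an unadjusted p under 0.05, 6 of the 37 were lower (Ccnb1, Ccnb2, Ndc80, Bub1b, Ttk and Hmmr) and 0 higher, against 2.14% of all genes lower and 0.795% higher. For Ccnb2 this rests on the probe set used. On its second one the age difference at 3 d was 0.93 above the mean of the other pairs, the opposite sign. For Ccnb1 the term was -0.90 (unadjusted p = 0.00442). This test has 1 residual degree of freedom.

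At 14 d the order was the other way round. In aged tissue 24 genes were higher and 12 lower than in young tissue, with a median difference of 0.13, against 0.02 over all genes, and 29 were higher with quantile normalization. Over all genes 47.9% were lower. Differences of 0.3 or more were found for 7 of 37 genes (18.9%), about the share of all genes (19%). Aurkb differed by 0.66, Tpx2 by 0.65, Pttg1 by 0.62 and Bub1 by 0.61, and at the low end Kif15 differed by -0.3 and Ube2c by -0.28. Tpx2 stood at 7.11 and 6.92 on the aged and young naive arrays, 9.06 and 8.99 at 3 d, and 7.34 and 6.68 at 14 d, so its 14 d values lay on either side of the naive ones. Kif15 stood at 6.1 and 6.41 on the aged and young naive arrays, 6.95 and 7.49 at 3 d, and 6.11 and 6.41 at 14 d. Its aged minus young difference was thus negative at each time (-0.31, -0.53 and -0.3). No mitosis gene passed the interaction test at 14 d (lowest adjusted p = 0.114), for which 0.375% of all genes were called higher and 0.0183% lower, 0.393% in all. Unadjusted, 11 of 37 were higher and 0 lower, against 9.01% and 4.36% of all genes. The interaction tests at 3 d and 14 d use the same 3 pairs, so their counts are not independent. A lower aged value at 3 d also raises the 14 d term. For Ndc80 the 14 d term was 0.56, with aged minus young differences of -0.62 at 3 d and 0.23 at 14 d. In naive tissue 21 genes were lower and 16 higher in aged rats, with a median of -0.06, and Kif11 (-0.35) and Ttk (0.28) lay farthest apart.

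**Figure D4:**
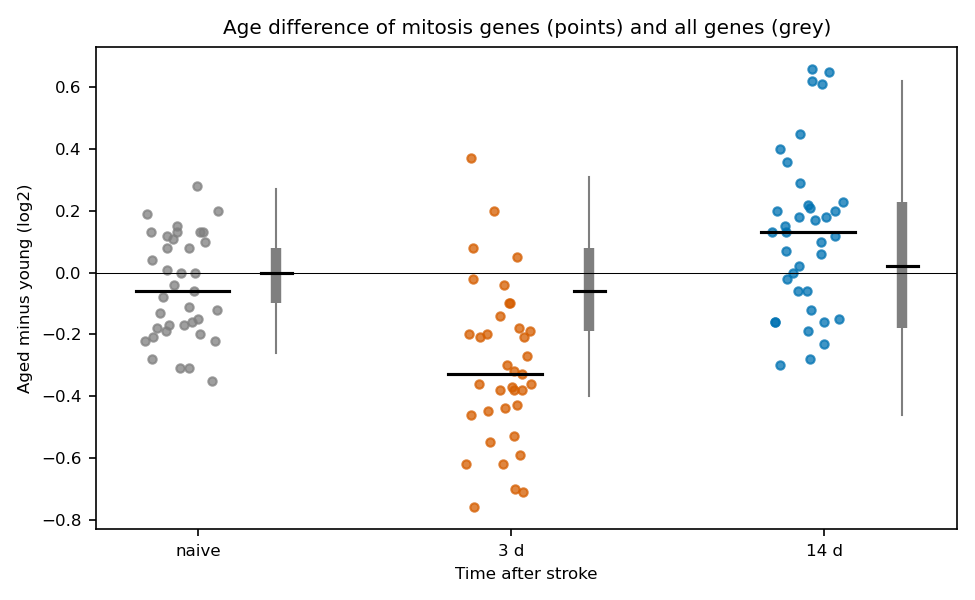
Points are the 37 mitosis genes and the vertical axis is their aged minus young difference on the log2 scale, for naive tissue, 3 d and 14 d. Black bars are medians (-0.06, -0.33 and 0.13), and the grey boxes and lines to the right of the points run between the 25th and 75th and between the 5th and 95th percentile of all 10947 genes, with their medians at 0, -0.06 and 0.02.

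Related genes were taken from lists by function. Of 52 other mitosis genes, 37 rose at 3 d, 1 fell and 14 did not pass, with a median change of 0.86. Of all genes 14.4% were called higher and 7.87% lower in this comparison. The largest rises were those of the kinetochore gene Ska3 (2.43 ± 0.21), the abscission gene Cep55 (2.16 ± 0.14), the centrosome kinase Nek2 (2.12 ± 0.20) and Mastl, the Greatwall kinase (1.89 ± 0.16). Cit, citron kinase, which acts in cytokinesis and is also expressed in neurons, fell by 0.45 (adjusted p = 0.0373). At 14 d 4 of these 52 were higher and 3 lower, against 13.6% and 11.4% of all genes. Lower at 14 d than at 3 d were 25 of the 52, against 1.82% of all genes. The 22 genes of DNA replication and G1/S rose in 17 at 3 d, with Rrm2, a ribonucleotide reductase subunit, at 3.49 ± 0.16 and the helicase genes Mcm5 and Mcm6 at 1.82 ± 0.13 and 1.79 ± 0.17, and Gins1, of the replication fork, at 1.70. In aged minus young at 3 d their median was -0.3, with 18 of 22 lower. Over all genes 62.4% were lower, with a median of -0.06, and the difference was not tested for this list.

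Of 15 mitotic transcription factors and partners 7 rose at 3 d and 0 fell. Mybl2, which encodes B-Myb, changed by 1.29 ± 0.15 (adjusted p = 0.00109) and Foxm1 by 1.24 ± 0.14 (adjusted p = 0.000835), and both fell back at 14 d (their levels fell by 1.22 and 1.13 from 3 d). The G1/S factor E2f1 rose by 0.81 and the repressor E2f5 by 0.80. The core of the anaphase promoting complex, which non-dividing cells also use, had 1 gene higher (Anapc10, 0.47 ± 0.13) and 1 lower (Anapc7, -0.51 ± 0.12) of 13, and cohesin and its regulators had 0 called of 9. Of 9 inhibitors of cyclin-dependent kinases and arrest genes 3 rose at 3 d and 5 at 14 d. Cdkn2c, which blocks Cdk4 and Cdk6, rose by 1.73 ± 0.16 at 3 d and 0.90 ± 0.16 at 14 d, Gadd45a by 0.91 ± 0.14 and 1.06 ± 0.14, and Cdkn1a, the inhibitor p21, by 0.65 ± 0.14 and 0.61 ± 0.14. Among all genes 14.4% were called higher and 7.87% lower at 3 d, and 13.6% higher at 14 d. None of these lists was tested as a set.

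**Figure D5:**
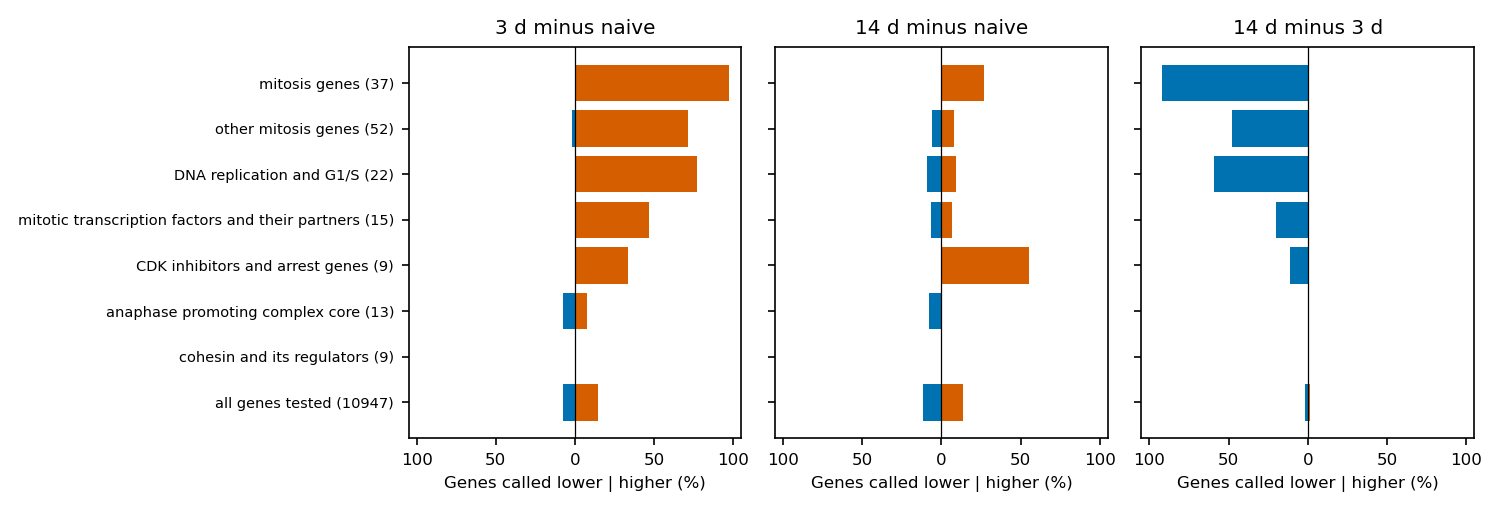
Bars give the percentage of each list called higher (orange, to the right) or lower (blue, to the left) with limma at an adjusted p under 0.05, with the number of genes tested in brackets. The mitosis genes have 36 of 37 higher at 3 d, 10 of 37 higher at 14 d and 34 of 37 lower at 14 d than at 3 d, while cohesin has 0 called in each panel.

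Markers of cells that could divide moved as well, and their part in the mitosis genes' changes was not tested. All 12 microglia and macrophage markers rose at 3 d (median 1.95) and all 12 at 14 d (median 2.03). Between 3 d and 14 d 0 of 12 were called, with a median of 0.39 in aged and 0.04 in young rats and fitted values from -0.98 for Cd14 to 0.60 for Cd68. In the same contrast 4 of 5 fibroblast markers and 1 of 3 lymphocyte markers (Cd4, 1.33 ± 0.14) were called higher. Called lower were 1 of 7 pericyte and smooth muscle markers and 1 of 5 precursor markers. No call was made among 8 astrocyte, 8 endothelial, 6 oligodendrocyte precursor, 2 neutrophil and 9 neuronal markers. Of all genes 1.34% were called higher and 1.82% lower in this contrast, 3.16% in all. A short list without a call therefore says little. The mean level of the 12 microglia and macrophage markers was 8.48 and 8.12 on the aged and young naive arrays. It was 10.22 and 10.13 at 3 d, and 10.63 and 10.03 at 14 d. Of 8 astrocyte markers 3 rose at 3 d and 5 at 14 d, of 8 endothelial markers 5 and 5, of 7 pericyte and smooth muscle markers 3 and 1, of 6 oligodendrocyte precursor markers 1 and 3, and of 5 fibroblast markers 5 and 5. Among all genes 14.4% were called higher at 3 d and 13.6% at 14 d. Few neutrophil (2 of 7) and lymphocyte (3 of 8) markers with a probe set passed the filter, and of these 1 and 2 rose at 3 d. In aged minus young at 3 d, the median of the microglia and macrophage markers was 0.1, that of the endothelial markers -0.27 and that of the fibroblast markers -0.54. The median was -0.24 for pericyte and smooth muscle, -0.23 for precursor, -0.14 for neutrophil and -0.03 for oligodendrocyte precursor markers. It was 0.01 for astrocyte, 0.01 for neuronal and 0.09 for lymphocyte markers, and -0.06 over all genes.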

How the data were processed

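Total RNA from microdissected tissue was pooled per group and amplified before labelling of single-stranded DNA, per the labels' protocols. The values that the authors deposited, for every probe set on each array, are taken to be log2. Their base was judged from how large they are, and folds depend on it. The submitters' processing notes name R 2.14.0 and affy. How background was corrected and arrays were normalized is not given in the sources used here. Array medians and quartiles were nearly equal, so any overall change in RNA content is removed.

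Of 28826 probe sets, 15209 had 1 symbol in the platform annotation. Those at or above the 40th percentile on at least 1 array were kept, and the highest mean stood for a gene (10947 genes). Limma 3.58.1 in R 4.3.3 fitted additive terms for age and time to the 6 arrays (2 residual degrees of freedom, 5.56 prior), with Benjamini-Hochberg adjustment over all genes at 0.05. Aged and young arrays serve as repeated measurements of a time effect. The p-values of this fit thus rest on how unlike the aged and young time courses were, with variance shared across genes. A real difference between the ages over time counts as spread there. Each group was 1 pool, so the spread between pools of a group was not measured. Having only 6 arrays limits precision. The functions were tested on simulated data. Alternatives were quantile normalization, median centring, other filters, trended and robust variances, all probe sets averaged, 1 term left out, and each array left out.

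The members and lists were chosen with earlier results of these data known. Genes named with values on every array were, by rule, the 2 largest 3 d changes of each role, those not called at 3 d, the extremes at 14 d and the extremes between ages at each time. On GRCr8, 9 of the 37 genes overlap another protein-coding gene (for example Kif20a and Cdc23), and whether their probes lie in the shared stretch was not examined.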

Additional observations from a re-analysis of the deposited data

Results flagged for a closer look

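Among the 37 mitosis genes, 5 changed in opposite directions in aged and young rats between naive tissue and 14 d. The share of all genes that did so was not counted. The median change of all genes was -0.05 in each age, and changes near 0 differ in sign easily. The difference between these changes was not tested directly, and each change rests on 1 array against 1 other. In the limma test of the age difference at 14 d against that of the other pairs, none of the 5 passed, with adjusted p = 0.191 for Cdkn3, 0.275 for Kif23, 0.301 for Tpx2, 0.516 for Ube2c and 0.759 for Birc5. Cdkn3 changed by 0.32 in aged and -0.31 in young rats, a difference of 0.63, and Tpx2 by 0.23 and -0.24, a difference of 0.47. Kif23 changed by 0.34 in aged and -0.06 in young rats, a difference of 0.4. Birc5 changed by -0.19 in aged and 0.18 in young rats, a difference of -0.37, and Ube2c by -0.34 and 0.13, a difference of -0.47. No group held enough arrays to ask whether 1 array stood apart.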

How the results depend on the processing

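At 3 d 36 mitosis genes were called with quantile normalization, centred medians, no filter, trended and robust variances, averaged probe sets and no age term, and between 35 and 37 when 1 array was left out. With the 60th percentile filter 22 were called at 3 d and 21 from 3 d to 14 d, since only 23 were tested. At 14 d the count was 10 with quantile normalization, averaged probe sets or no age term, 9 with centred medians or no filter, 8 with trended variances and 7 with the 60th percentile filter. Leaving out 1 array gave 3 to 16 at 14 d and 32 to 36 from 3 d to 14 d, and for aged minus young 0 in each case. The number of all genes called then ran from 746 to 3726 at 3 d, 752 to 3470 at 14 d, 221 to 573 from 3 d to 14 d, and 0 to 2 for aged minus young, where trended variances gave 1. At 14 d 54.5% of called genes were higher, and 44.2% with centred medians (1336 higher and 1686 lower). For the age difference at 3 d, 0 genes were called with quantile normalization, centred medians or the 60th percentile filter, 4 without a filter, 8 with trended variances and 2 with averaged probe sets, against 1 in the model as planned. At 14 d there were 0 with quantile normalization, 13 with centred medians and 16 without a filter, against 43, and in naive tissue 45 with trended variances, against 0. None of these were mitosis genes. Small 14 d changes that had not passed crossed 0: Kif15 to -0.01 with quantile normalization and -0.05 with centred medians, and, over the arrays left out, Birc5 (-0.18 to 0.17), Ube2c (-0.28 to 0.08), Kif15 (-0.06 to 0.07), Ccnb1 (-0.12 to 0.41) and Tpx2 (-0.27 to 0.26). The causes were not tested. The labels give no replicate numbers, so no block by number was made. The arrays were paired by design instead, with age as a term in the time comparisons and time as a term in the age comparison. Without the age term the call of Kif15 from 3 d to 14 d ended (adjusted p = 0.0694).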

Other observations

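A pair of genes from the cell type lists followed the time course of the mitosis genes and were chosen after their values were seen. Nes, which encodes the intermediate filament nestin of neural precursors, reactive astrocytes and growing vessels, had 6.63 and 6.62 on the aged and young naive arrays, 8.34 and 8.23 at 3 d, and 6.93 and 7.16 at 14 d. It rose by 1.66 ± 0.13 at 3 d with limma (adjusted p = 0.000224) and changed by -1.24 ± 0.13 from 3 d to 14 d (adjusted p = 0.00267). Tagln, the smooth muscle protein transgelin, had 8.41 and 8.09 on the aged and young naive arrays, 10.74 and 10.55 at 3 d, and 8.5 and 8.58 at 14 d. It rose by 2.39 ± 0.14 at 3 d and changed by -2.11 ± 0.14 from 3 d to 14 d (adjusted p = 0.0006).

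The probe sets of Ccnb2 disagreed in the sign of its age difference at 14 d. The second one, not used above, had 5.42 on the aged and 6.91 on the young 14 d array, and the one used had 6.68 and 6.53. Both were higher at 3 d than in naive tissue in each age, with 8.06 and 8.22 in aged and young rats on the second one, against 5.68 and 6.38 on the naive arrays.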
